A study of Mus musculus with 12 samples.

Results

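Phagocytes make superoxide with an NADPH oxidase, and other enzymes take that superoxide apart again. The 8 genes described here cover both sides. Cybb and Cyba encode the membrane pair gp91phox and p22phox, Ncf1 and Ncf4 encode the cytosolic subunits p47phox and p40phox, and Rac2 encodes the small GTPase of blood cells that joins the assembled enzyme. Sod1 and Sod2 encode the cytosolic and the mitochondrial superoxide dismutase, which turn superoxide into hydrogen peroxide, and Cat encodes catalase, the peroxisomal enzyme that breaks hydrogen peroxide down. The genes were chosen by symbol, with earlier results of these data known. Each had 1 row in every library: 8 of 49585 gene IDs in the liver tables and 8 of 55401 in the macrophage tables.

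In resting phagocytes the oxidase is held apart, with the membrane pair in vesicles and the plasma membrane and the other subunits in the cytosol. Stimulation brings them together, and electrons then pass from NADPH through gp91phox to oxygen. In liver the phagocytes are the resident Kupffer cells and the monocytes and neutrophils that arrive from blood, while hepatocytes are rich in catalase and in the cytosolic dismutase. Sod2 is a well known target of NF-kB in cells exposed to bacterial products.

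Poly(A) RNA from C57BL/6 mice was sequenced in 12 libraries, in 4 groups of 3. The first group was untreated liver, labelled wild type, and the second was liver with LPS for 2 h; LPS is bacterial lipopolysaccharide, the ligand of toll-like receptor 4. The other 2 groups were peritoneal macrophages that carried a lentiviral short hairpin RNA for 72 h and then received LPS for 2 h, so every macrophage library had both a lentivirus and LPS. The hairpin was a negative control (shNC) or was directed against Gm26917, a long non-coding RNA (shGm26917). The labels do not give the dose or route of LPS, the age of the mice, how the macrophages were obtained, or how many hairpins were used. They also do not say whether the samples of a group came from separate animals or cultures, so p-values measure the spread between these samples, which may be technical.

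Libraries held 17322770 to 20913964 counts in liver and 15605311 to 18062853 in macrophages. Levels are CPM, the usual unit of counts divided by library size, with sizes scaled by TMM, a method that centres most genes on no change. With unscaled library totals, the all-gene median of the log2 fold changes moved from -0.06 to -0.49 in liver, and the calls from 3227 higher and 3060 lower to 1943 and 5305. In macrophages the median moved from -0.00 to 0.29 and the calls from 1618 higher and 1431 lower to 3135 and 794. The hairpin labels could not be checked against their target, since Gm26917 in macrophages was not analysed here. The library of shNC replicate 2 stood apart: a chi-square statistic per degree of freedom over genes was 192 and 228 against the other shNC libraries, which differed by 28.1. That library also held 531 CPM of Nos2, the inducible nitric oxide synthase, where the other shNC libraries held 30.2 and 68.5. The tests and ratios of the 8 genes in macrophages are therefore given with and without it. Counts of calls for those genes and for the pathway lists below are given both ways too. Many fold changes of other macrophage genes, the counts of called markers and most levels are given with all libraries only. In liver, untreated replicate 3 differed from the other untreated libraries by 187 and 165.9, against 81.9 between those, and LPS replicate 1 from the other LPS libraries by 76.2 and 70.7, against 20.6. These are bulk samples, in which fewer cells of a type and less RNA per cell cannot be told apart.

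All 8 genes are protein-coding. In GRCm38 (mm10), Cybb lies on chromosome X at 9435252 to 9487771, Cyba on chromosome 8 at 122424776 to 122432930, Ncf1 on chromosome 5 at 134220053 to 134229625 and Cat on chromosome 2 at 103453849 to 103485160, each on the minus strand. Ncf4 (78244801 to 78262580, plus strand) and Rac2 (78559167 to 78572783, minus strand) are both on chromosome 15. Sod1 is on chromosome 16 at 90220754 to 90226329 and Sod2 on chromosome 17 at 13006846 to 13040063, both on the plus strand. Exons of Ncf1 overlap those of Gtf2ird2 on the opposite strand, so their reads could be shared. Gtf2ird2 had 44 to 107 counts in the liver libraries and 103 to 305 in the macrophage libraries. Of all 50-base stretches of the Sod2 transcripts, 21.0% also occur in transcripts of other genes, and for Sod1 the share was 3.42%, from the pseudogene Gm8566. Reads from those stretches could be split, and the Sod2 and Sod1 levels are uncertain to that extent.

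The promoters of Cybb and Ncf1 are shown because both encode subunits that rose in liver and because in the macrophage comparison Ncf1 rose while Cybb did not pass the test. The windows are the 250 bases before the RefSeq start in GRCm38.p6, chrX:9469325-9469574 and chr5:134229626-134229875, both on the minus strand. The Cybb window lies inside the annotated span given above, 9435252 to 9487771. It therefore precedes the RefSeq start but not the outermost annotated start. Capitals mark matches on either strand to the core of the interferon-stimulated response element (ISRE), searched as GAAA, any 2 bases, then GAAA. They also mark TGANTCA, a looser form of the AP-1 core that allows any base at its centre.
Cybb: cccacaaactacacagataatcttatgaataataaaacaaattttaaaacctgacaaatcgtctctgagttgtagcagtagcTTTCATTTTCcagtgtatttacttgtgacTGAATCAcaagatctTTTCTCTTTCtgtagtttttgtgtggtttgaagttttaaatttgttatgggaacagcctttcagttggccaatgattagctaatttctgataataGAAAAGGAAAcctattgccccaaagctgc
Ncf1: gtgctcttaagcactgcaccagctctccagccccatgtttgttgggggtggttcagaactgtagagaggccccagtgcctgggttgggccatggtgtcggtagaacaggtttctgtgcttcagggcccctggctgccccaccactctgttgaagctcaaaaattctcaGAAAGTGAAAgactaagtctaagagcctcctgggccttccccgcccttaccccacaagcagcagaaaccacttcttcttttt

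The Cybb window holds 3 matches to the ISRE core, at 168 to 159, 124 to 115 and 29 to 20 bases before the start. It holds 1 match to the looser AP-1 pattern, TGAATCA, at 139 to 133. The Ncf1 window holds 1 match to the ISRE core, at 82 to 73. Of 32851 mouse promoter windows of the same length, 2.98% held the ISRE core and 6.75% the looser AP-1 pattern. The windows also differ in base composition, with 34.0% G and C for Cybb and 54.4% for Ncf1, against a median of 52.4% over all promoters. A further 3 patterns were searched on both strands: GGG, any 2 bases, then TTTCC for NF-kB (1.41% of promoters), GAGGAA for PU.1 (23.3%) and TGACNNNGC for the antioxidant response element (10.2%). None of the 3 occurred in the Cybb or Ncf1 window. In the other windows of these genes, the PU.1 letters occurred in Sod2 and Cat, the antioxidant response letters in Sod1, and none of the 5 patterns in Cyba; Ncf4 and Rac2 had no promoter entry.

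The liver comparison set LPS liver against untreated liver. All 5 oxidase genes were higher after LPS, by 2.85-fold (Cyba) to 3.74-fold (Ncf4). Sod2 rose 3.41-fold, Sod1 rose 1.69-fold and Cat did not pass the test. Of the 8 genes, 7 were called higher and 0 lower by edgeR's quasi-likelihood test at an adjusted p under 0.05, and 0 were lower at an unadjusted p under 0.05 or by DESeq2. Calls were frequent in this comparison: of the 13869 genes tested, 23.3% were called higher, 22.1% lower and 45.3% in either direction. The LPS and untreated libraries did not overlap for 7 of the 8 genes, against 57.8% of all genes tested. Without untreated replicate 3 the same 7 genes were higher, and without LPS replicate 1 there were 6, Sod1 being the gene lost. The median log2 fold change of the 8 genes was 1.61, against -0.06 over all genes tested. Since the 8 genes were chosen with earlier results known, they are not an unselected set to hold against all genes.

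**Figure D1:**
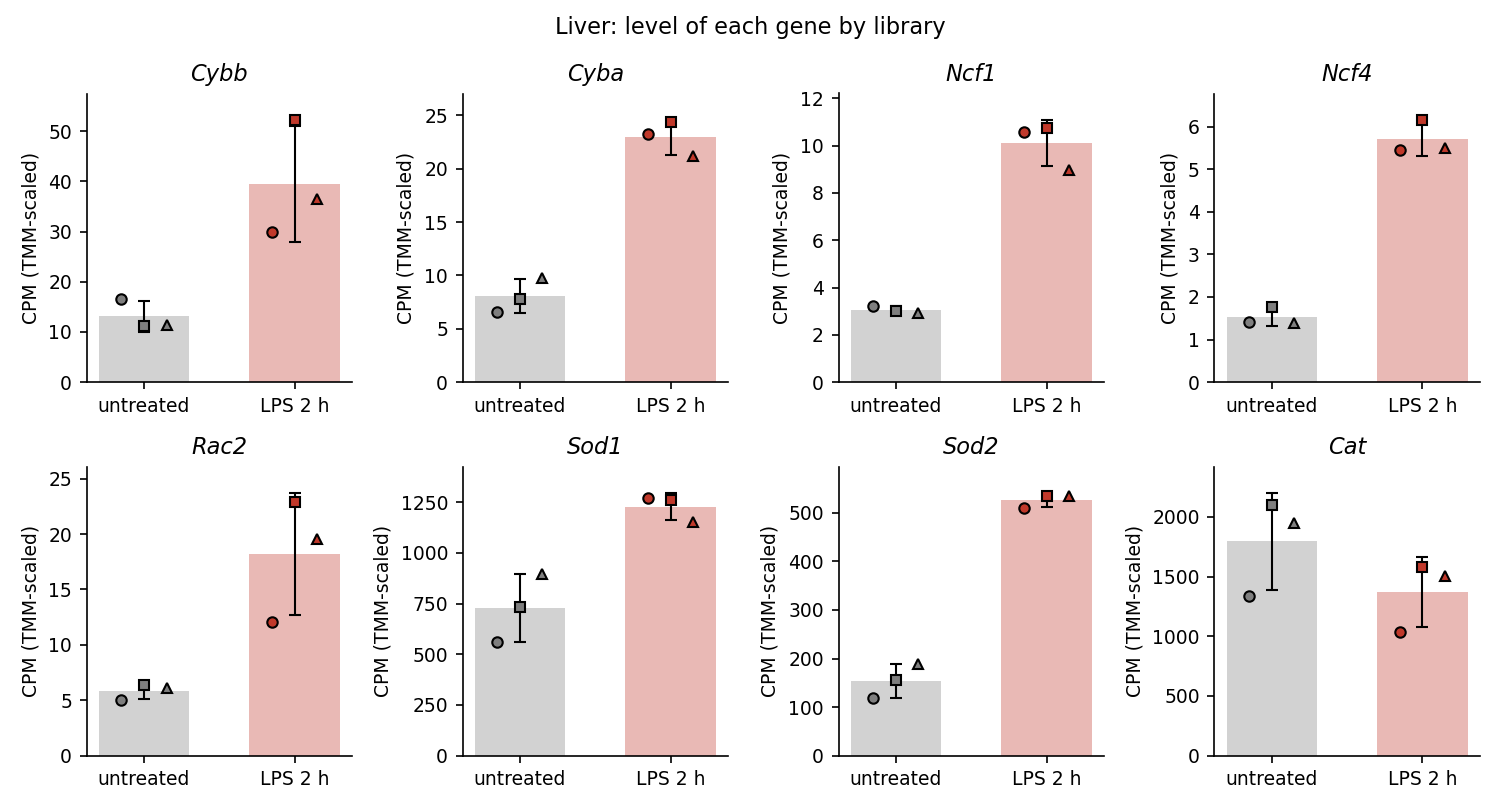
Level of each gene in the liver libraries, as CPM on TMM-scaled library sizes (vertical axis, from 0), for untreated liver (grey) and liver with LPS for 2 h (red). Bars are means, error bars the SD of 3 libraries, and symbols the single libraries; every gene except Cat has all LPS points above all untreated points.

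Among the membrane subunits, Cybb was at 16.7, 11.2 and 11.4 CPM in untreated liver and at 29.8, 52.3 and 36.4 CPM after LPS. The lowest LPS library lay above the highest untreated one, and LPS replicate 2 was well above the others. The means were 13.1 ± 3.08 and 39.5 ± 11.5 CPM (SD, n = 3), a log2 fold change of 1.59 (SE 0.26, edgeR adjusted p = 0.00154). Cyba, the partner that stabilises gp91phox, was at 6.60, 7.83 and 9.73 CPM before and at 23.3, 24.4 and 21.2 CPM after LPS, with little spread among the LPS libraries. Its log2 fold change was 1.51 (SE 0.20, edgeR adjusted p = 0.000500). Within each library the log2 ratio of Cybb to Cyba averaged 0.69 ± 0.57 in untreated liver and 0.75 ± 0.37 after LPS, and the groups overlapped (exact permutation p = 0.9, adjusted over 3 ratios 0.9). The difference of 0.05 became -0.18 without untreated replicate 3.

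The cytosolic organiser Ncf1 was at 3.23, 3.01 and 2.91 CPM in untreated liver and at 10.6, 10.8 and 8.99 CPM after LPS. These are the tightest untreated values of the 5 oxidase genes, and the log2 fold change was 1.73 (SE 0.21, edgeR adjusted p = 0.000322). Ncf4, which binds phosphoinositides on the phagosome, was at 1.41, 1.76 and 1.39 CPM before and 5.45, 6.16 and 5.51 CPM after LPS. Every LPS library was above every untreated one, with a log2 fold change of 1.90 (SE 0.25, edgeR adjusted p = 0.000539). Rac2 was at 5.05, 6.35 and 6.12 CPM in untreated liver and at 12.1, 22.9 and 19.6 CPM after LPS. LPS replicate 1 was the lowest of its group for both Rac2 and Cybb. The Rac2 log2 fold change was 1.64 (SE 0.26, edgeR adjusted p = 0.00137).

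Several lists of leukocyte markers were higher after LPS, but not all of their genes. Over all genes tested, 23.3% were called higher and 22.1% lower. Of 11 neutrophil markers tested, 10 were higher after LPS, and their summed level (14 genes) went from 3.91 to 9.34 CPM in untreated livers to 228 to 321 CPM. S100a9, a calcium-binding protein that neutrophils store in bulk, was at 0.501, 0.927 and 2.60 CPM before and at 112, 141 and 101 CPM after LPS, and Mmp9 did not pass the test (edgeR adjusted p = 0.0519). Of 12 pan-leukocyte markers, 6 were higher and 0 lower, and their sum went from 126 to 142 CPM to 216 to 288 CPM. Of 9 monocyte markers tested, 6 were higher and 2 lower, the chemokine receptors Ccr2 (log2 fold change -1.26) and Cx3cr1 (-3.16), and the sum went from 46.9 to 53.4 CPM to 71.5 to 105.03 CPM. Of 7 B cell markers 0 were higher and 1, Cd79b (-2.03), was lower in edgeR's test, with sums of 13.5 to 16.3 CPM before and 8.73 to 13.6 CPM after LPS. Of 10 T and NK cell markers 3 were higher and 0 lower. The 12 Kupffer cell markers summed to 449 to 514 CPM before and 195 to 498 CPM after LPS, with 1 higher and 2 lower. The low end was LPS replicate 1, where the Kupffer cell lectin Clec4f was at 29.5 CPM against 106 and 86.3 CPM in the other LPS livers. The defining hepatocyte markers stayed high, at 74133 to 105130 CPM in sum after LPS against 80708 to 123030 CPM. The part of these cell types in the rise of the oxidase genes was not tested.

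The oxidase counts were also set against the summed counts of the 12 pan-leukocyte markers of the same library, a measure chosen after seeing the data. Cybb counts equalled 9.84 ± 2.90% of the marker sum in untreated liver and 15.8 ± 2.16% after LPS (SD, n = 3). Ncf4 went from 1.13 ± 0.110% to 2.34 ± 0.198%, and Ncf1 from 2.28 ± 0.243% to 4.16 ± 0.660%. For all 5 oxidase genes the LPS libraries lay above the untreated ones, with log2 differences of 0.66 (Cyba) to 1.05 (Ncf4). Each had an exact 2-sided permutation p of 0.1, the smallest that 3 against 3 libraries can give (0.1 adjusted over the 5 genes).

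Of the dismutases, Sod2 was at 118, 156 and 188 CPM in untreated liver and at 509, 534 and 535 CPM after LPS. The LPS libraries were nearly equal, and the log2 fold change was 1.77 (SE 0.23, edgeR adjusted p = 0.000517). Sod1 was at 559, 731 and 896 CPM before and at 1272, 1260 and 1152 CPM after LPS, again without overlap. Its log2 fold change of 0.75 (SE 0.25, edgeR adjusted p = 0.0370) was the least firm of the 7 calls. It ended when any library except untreated replicate 3 was left out (edgeR adjusted p of 0.0793 and 0.0788 without untreated replicates 1 and 2, and of 0.0786, 0.117 and 0.0911 without LPS replicates 1, 2 and 3) and when the filter on low counts was dropped (0.0601). Scaled by library totals, Sod1 was at a log2 fold change of 0.34 with an adjusted p of 0.23.

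Catalase RNA was at 1337, 2097 and 1950 CPM in untreated liver and at 1038, 1576 and 1502 CPM after LPS, and the groups overlapped. The log2 fold change of Cat was -0.39 (SE 0.29, edgeR adjusted p = 0.301). With library totals alone it was -0.80 and passed the test (adjusted p = 0.0248), a scaling under which the median of all genes was itself at -0.49.

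Ratios within a library do not depend on that scaling. The log2 ratio of Sod2 to Sod1 counts was -2.25, -2.23 and -2.25 in untreated livers and -1.32, -1.24 and -1.11 after LPS. The untreated libraries agreed to within 0.014 (SD), and the shift of 1.02 amounts to 2.02-fold more Sod2 for each Sod1 count. The log2 ratio of Sod2 to Cat differed by 2.18, or 4.53-fold, going from -3.54 ± 0.19 to -1.36 ± 0.29. Neither ratio overlapped between groups (exact 2-sided permutation p = 0.1 for each, the smallest possible, and 0.15 adjusted over the 3 ratios).

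**Figure D2:**
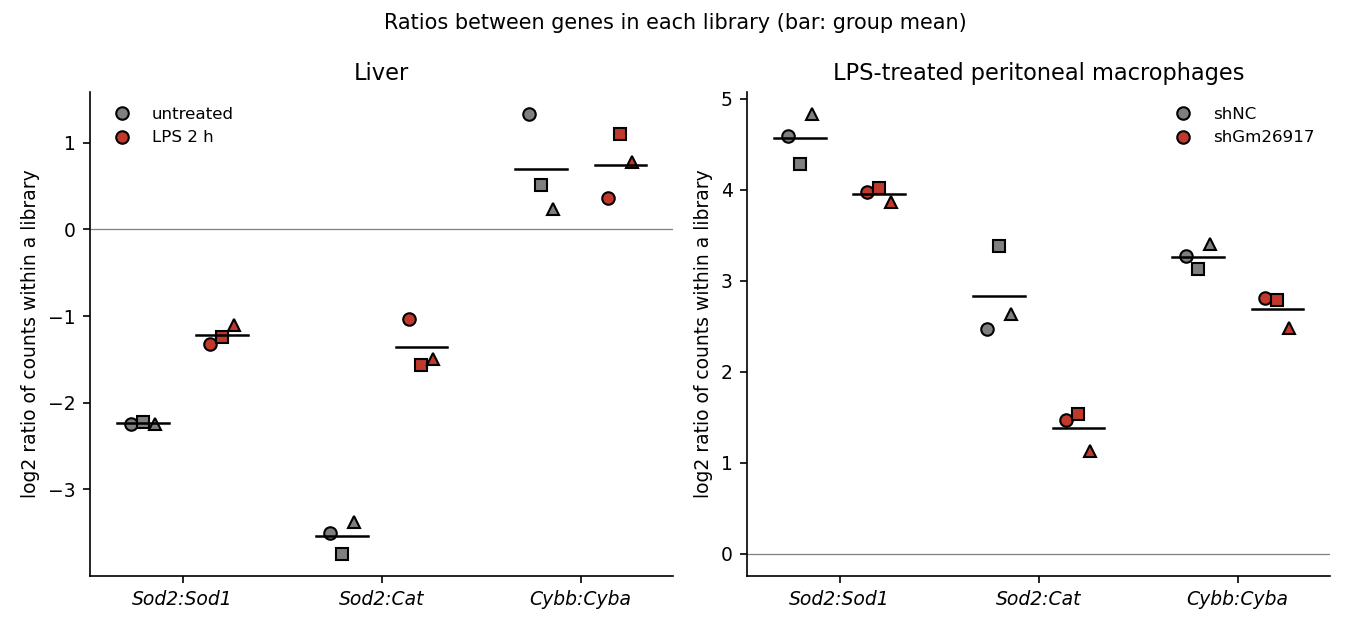
Log2 ratio of the counts of gene pairs within each library (vertical axis), in liver (left) and in LPS-treated macrophages (right), with grey for the control group and red for the LPS or shGm26917 group; symbols are libraries and bars are group means. In liver the Sod2:Sod1 and Sod2:Cat ratios are higher after LPS by 1.02 and 2.18, and in macrophages they are lower with shGm26917 by 0.61 and 1.45.

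CPM per kilobase of exon allows a rough comparison between genes. On that scale Cat led in untreated liver at 687 ± 154, followed by Sod1 at 184 ± 42.4 and Sod2 at 15.4 ± 3.51 (SD, n = 3). The oxidase genes were far below, from Cyba at 7.75 ± 1.52 through Cybb at 2.26 ± 0.531 and Rac2 at 1.88 ± 0.223 to Ncf1 at 0.833 ± 0.0449 and Ncf4 at 0.753 ± 0.103. Cybb and Rac2 overlapped in their libraries, as did Ncf1 and Ncf4, so these neighbours were not separated. After LPS the order of the first 6 was unchanged, from Cat at 525 ± 112 and Sod1 at 309 ± 16.6 to Cybb at 6.80 ± 1.98 and Rac2 at 5.86 ± 1.78 CPM per kilobase. Length here is the union of all annotated exons, which understates genes with long, rarely used exons. It was 2613 bases for Cat, 3970 for Sod1 and 10008 for Sod2, and the order of genes depends on these lengths.

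Of 27 oxidase subunits, homologues and regulators, 19 were tested in liver, with 9 higher and 1 lower (7 and 2 with library totals alone). Over all genes tested, 23.3% were called higher and 22.1% lower. Outside the 5 members the count was 4 higher and 1 lower of 14, with a median log2 fold change of 0.07. Cybc1, a chaperone needed for mature gp91phox, rose from 7.05, 7.32 and 5.38 CPM to 12.3, 15.1 and 12.3 CPM (log2 fold change 1.01, edgeR adjusted p = 0.00494; 0.0547 with library totals alone). The ubiquitous GTPase Rac1 had a log2 fold change of -0.30 (edgeR adjusted p = 0.18), where Rac2 was at 1.64.

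Nox4, the oxidase homologue of non-phagocytic cells, fell from 4.14, 7.83 and 8.64 CPM to 2.82, 2.77 and 3.10 CPM (log2 fold change -1.24, edgeR adjusted p = 0.0118). Of the regulators that act upstream of assembly, 2 rose: Vav1, a Rac exchange factor of blood cells (log2 fold change 1.18, edgeR adjusted p = 0.00256), and the kinase Prkcd (1.02, adjusted p = 0.0100, and 0.0859 with library totals alone). Sh3pxd2b, an adaptor related to p47phox, had the largest rise of the list, from 1.32, 0.742 and 1.22 CPM to 9.28, 6.21 and 5.69 CPM (log2 fold change 2.68, edgeR adjusted p = 0.000369).

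In the list of superoxide and peroxide removal, 9 of 28 tested genes were higher after LPS and 3 lower, against 23.3% and 22.1% of all genes tested. The median log2 fold change of the list was 0.36, against -0.06 over all genes tested. The genes that rose besides Sod1 and Sod2 were the glutathione peroxidases Gpx1 (1.03, edgeR adjusted p = 0.0117) and Gpx4 (1.02, adjusted p = 0.0119), the thioredoxin Txn1 (1.33, adjusted p = 0.00346), the reductases Gsr (1.06, adjusted p = 0.0084) and Txnrd1, the peroxiredoxin Prdx5, and Ccs. Ccs is the copper chaperone that loads Sod1, and its log2 fold change of 0.75 (edgeR adjusted p = 0.0219) stood beside 0.75 for Sod1. Sod3, the extracellular dismutase, did not pass the test (log2 fold change 0.02, edgeR adjusted p = 0.948). The 3 genes that fell were the sestrins Sesn2 (-3.37, edgeR adjusted p = 0.000607) and Sesn1 (-2.67, adjusted p = 7.74e-05) and the reductase Txnrd3 (-1.13, adjusted p = 0.0364). With library totals alone the list counted 4 higher and 5 lower, and without LPS replicate 2 it counted 5 and 2.

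NADPH is the fuel of the oxidase and of the glutathione and thioredoxin reductases. Of 15 tested genes of NADPH supply, 3 were higher and 4 lower (2 and 7 with library totals alone), against 23.3% and 22.1% of all genes tested. The count was 2 and 2 without LPS replicate 1, 2 and 1 without LPS replicate 2, and 1 and 3 without untreated replicate 2. Within the pentose phosphate pathway, Pgls rose (log2 fold change 1.08, edgeR adjusted p = 0.00345) and Pgd rose (0.81, adjusted p = 0.0156). G6pdx, which catalyses the first step, was called lower (-1.47, edgeR adjusted p = 0.0352), but untreated replicate 3 held 11.9 CPM against 3.41 and 3.99, and without it the adjusted p was 0.11. The folate enzyme Mthfd2 rose (log2 fold change 1.81, edgeR adjusted p = 0.0179), whereas Mthfd1l (-1.44), Mthfd1 (-0.83) and the NAD kinase Nadk2 (-0.82) fell.

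Among other oxidant-forming enzymes, 2 of 12 tested genes were higher and 4 lower (2 and 7 with library totals alone), against 23.3% and 22.1% of all genes tested. Xdh, the xanthine dehydrogenase and oxidase, was at 53.1, 60.3 and 100.2 CPM before and at 868, 759 and 717 CPM after LPS (log2 fold change 3.46, edgeR adjusted p = 5.44e-05). Nos2 had 0 counts in all 3 untreated livers and 9.28, 10.8 and 8.61 CPM after LPS (edgeR adjusted p = 1.97e-05). Set against 3 counts in each untreated library, which a count of 0 allows, it was at least 70.6-fold higher. The genes that fell were Hao2 (log2 fold change -1.76), Aox3 (-1.43), Maoa (-0.90) and Aox1 (-0.63). Of the 28 called genes named from these 4 lists, 16 kept the call in all 6 fits that left out 1 library. The other 12 lost it in at least 1 of them: Gpx1 and Maoa without LPS replicate 2, Pgd without untreated or LPS replicate 2, Mthfd1l without LPS replicate 2 or 3, and Ccs, Prdx5, Txnrd3, G6pdx, Mthfd2, Mthfd1, Hao2 and Aox1 in 3 to 5 fits each, with adjusted p values of up to 0.131 (Hao2).

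The macrophage comparison asked how the hairpin against Gm26917 alters LPS-treated peritoneal macrophages. In these cells the oxidase genes were abundant, and they did not change in 1 direction: Ncf1 rose 2.59-fold, Rac2 fell by 1.31 on the log2 scale, and Cybb, Cyba and Ncf4 did not pass the test. Sod2 fell by 1.07, and Sod1 and Cat did not pass the test. Of the 8 genes, 1 was called higher and 2 lower by edgeR's quasi-likelihood test, among 12876 genes of which 23.7% were called, 12.6% higher and 11.1% lower. The groups did not overlap for 6 of the 8 genes, against 45.9% of all genes tested. Without shNC replicate 2 the calls were 1 higher and 3 lower, and Sod1 was the gene added.

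**Figure D3:**
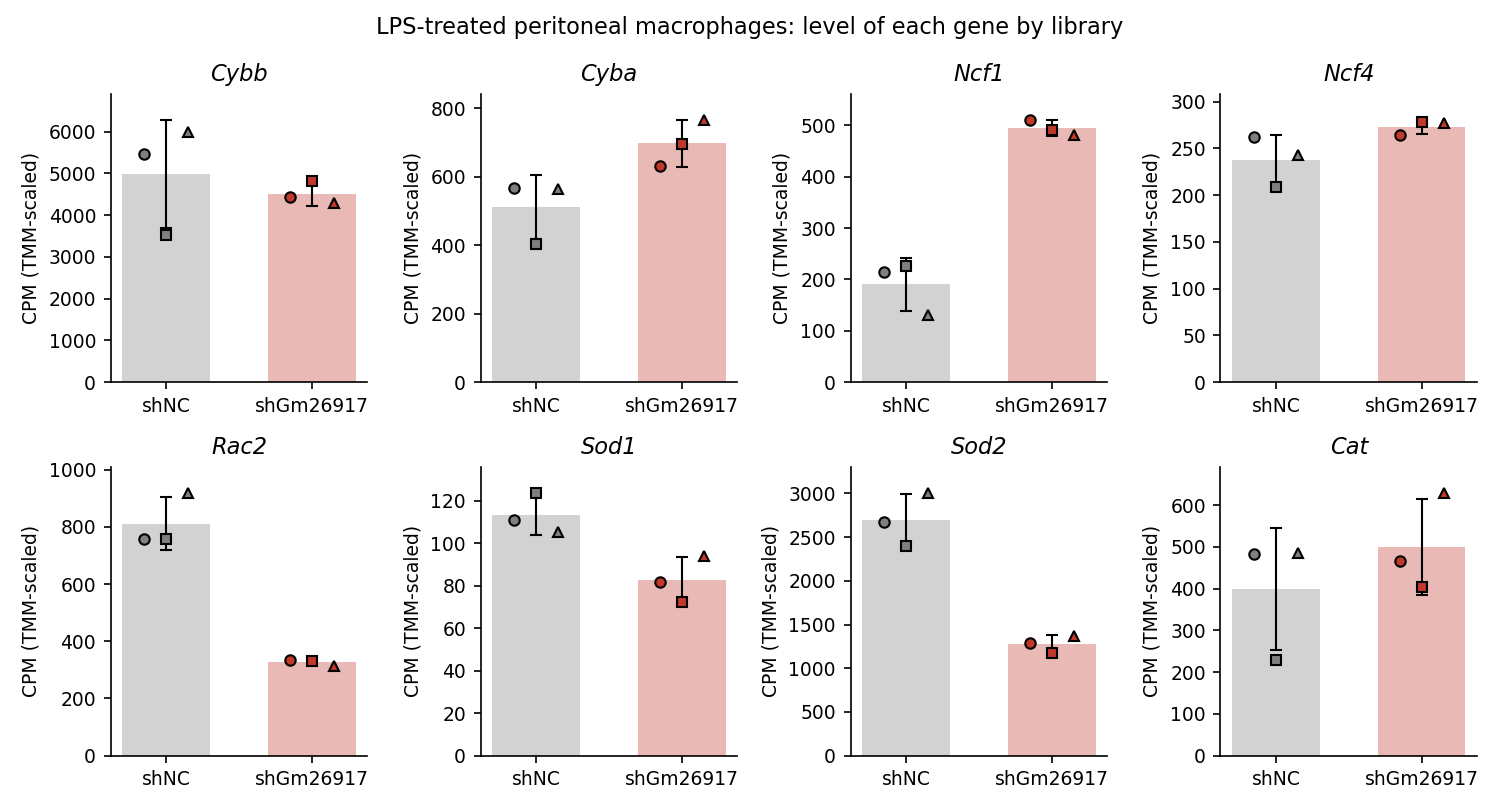
Level of each gene in LPS-treated peritoneal macrophages, as CPM on TMM-scaled library sizes (vertical axis, from 0), for the control hairpin shNC (grey) and shGm26917 (red). Bars are means, error bars the SD of 3 libraries, and symbols the single libraries (square: replicate 2); Ncf1 is higher and Rac2 and Sod2 are lower with shGm26917 in every library.

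Cybb was the most abundant of the oxidase genes, at 5460, 3520 and 5978 CPM with shNC and at 4423, 4824 and 4282 CPM with shGm26917. The shGm26917 libraries fell between the low shNC replicate 2 and the others, and the log2 fold change was -0.14 (SE 0.25, edgeR adjusted p = 0.707). Without shNC replicate 2 it was -0.36 (adjusted p = 0.116), and with library totals alone it was 0.15 (adjusted p = 0.687), so no direction can be given. Cyba was at 567, 403 and 564 CPM with shNC and at 630, 697 and 767 CPM with shGm26917, without overlap. Its log2 fold change of 0.45 (SE 0.18, edgeR adjusted p = 0.122) did not pass the test, but it did with library totals alone (0.74, adjusted p = 0.0295); without shNC replicate 2 it was 0.29 (adjusted p = 0.135). The log2 ratio of Cybb to Cyba counts went from 3.27 ± 0.14 to 2.69 ± 0.18 and did not overlap between groups (exact 2-sided permutation p = 0.1, the smallest possible, and 0.1 adjusted over 3 ratios). The difference was -0.57, and -0.64 without shNC replicate 2.

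The cytosolic subunits differed from each other. Ncf1 was at 215, 226 and 131 CPM with shNC and at 511, 492 and 481 CPM with shGm26917. Every shGm26917 library was above every shNC library, and the log2 fold change was 1.37 (SE 0.22, edgeR adjusted p = 0.00910, and 0.00123 without shNC replicate 2). Ncf4 was at 262, 208 and 243 CPM against 264, 278 and 277 CPM, groups that barely parted (log2 fold change 0.20, SE 0.13, edgeR adjusted p = 0.302; 0.49 and 0.0454 with library totals alone; adjusted p = 0.515 without shNC replicate 2).

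Rac2 was at 757, 758 and 918 CPM with shNC and at 335, 331 and 315 CPM with shGm26917, a wide and even gap. Its log2 fold change was -1.31 (SE 0.14, edgeR adjusted p = 0.00371), and -1.37 without shNC replicate 2 (adjusted p = 0.000337). Rac1 was at 333, 337 and 395 CPM with shNC and at 268, 280 and 282 CPM with shGm26917 (log2 fold change -0.36, edgeR adjusted p = 0.0841; -0.41 and 0.0345 without shNC replicate 2).

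Marker levels also differed between the macrophage groups, where 12.6% of all genes tested were called higher and 11.1% lower. The 12 pan-leukocyte markers summed to 7045 to 8778 CPM with shNC and to 8659 to 9660 CPM with shGm26917, with 4 higher and 1 lower. The 12 markers of large peritoneal macrophages summed to 3861 to 4945 CPM and to 5882 to 7255 CPM, with 2 higher and 0 lower. Those 2 were Csf1r, with means of 1005 and 2502 CPM, and Alox15, with means of 75.4 and 884 CPM. None of the others passed the test. Gata6 (-0.01), Adgre1 (-0.27), Prg4 (-0.32) and Icam2 (-1.38) had negative log2 fold changes, and Timd4, Itgam, Cd5l, Garnl3, Selp and F5 positive ones. The 10 monocyte markers summed to 1748 to 3088 CPM and to 3232 to 3763 CPM, the highest shNC value being replicate 2, which held 1115 CPM of Fcgr1. Of the 9 tested, Csf1r, which is also in the large peritoneal macrophage list, was higher (log2 fold change 1.32) and Ly6c2 (-3.57) and Ms4a4c (-6.82) were lower. Ms4a4c was at 3.22, 41.8 and 6.41 CPM with shNC and at 0.153, 0.110 and 0.170 CPM with shGm26917. The neutrophil markers Retnlg, Ngp, Ly6g and Stfa2l1 were at 0 in all 6 libraries, and the neutrophil list summed to 783 to 1243 CPM and to 626 to 753 CPM. Of the 5 neutrophil markers tested, Mmp8 was higher (log2 fold change 1.63) and Mmp9 (-1.64) and Camp (-2.39) were lower. Of 8 B cell markers tested, 1 was higher, Cd22 (1.23), and 0 were lower. Of 5 mast cell and eosinophil markers tested, 0 were higher and 0 lower. B cell markers summed to 220 to 664 CPM and to 164 to 369 CPM, and mast cell and eosinophil markers to 2.57 to 35.1 CPM and to 3.97 to 6.57 CPM. Both upper ends of the shNC range were replicate 2, and without it they were 335 and 5.23 CPM. For the neutrophil list the upper end was then 967 CPM. The part of cell makeup in the changes of Ncf1, Rac2 and Sod2 was not tested. As a share of the pan-leukocyte sum, a measure chosen after seeing the data, Ncf1 went from 2.44% to 5.42% and Rac2 from 10.1% to 3.58%, both without overlap (exact 2-sided permutation p = 0.1 for each, 0.167 adjusted over the 5 genes). The log2 differences were 1.22 for Ncf1 and -1.50 for Rac2, and 1.455 and -1.455 without shNC replicate 2.

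Sod2 was at 2672, 2398 and 3003 CPM with shNC and at 1285, 1177 and 1371 CPM with shGm26917. The groups were far apart, with a log2 fold change of -1.07 (SE 0.18, edgeR adjusted p = 0.00930), and -1.17 without shNC replicate 2 (adjusted p = 0.000979). Without shGm26917 replicate 2, the adjusted p of Sod2 was 0.0562. Sod1 was at 111, 124 and 105 CPM and at 81.7, 72.3 and 93.8 CPM, also without overlap (log2 fold change -0.46, SE 0.14, edgeR adjusted p = 0.0521; -0.40 and 0.0431 without shNC replicate 2). Cat was at 482, 230 and 485 CPM and at 465, 405 and 628 CPM (log2 fold change 0.32, SE 0.32, edgeR adjusted p = 0.495). The low Cat value was again shNC replicate 2, and without it the log2 fold change was 0.03 (adjusted p = 0.91).

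The ratios between the removal enzymes were lower with shGm26917. The log2 ratio of Sod2 to Sod1 counts went from 4.57 ± 0.28 to 3.96 ± 0.079, and that of Sod2 to Cat from 2.83 ± 0.49 to 1.38 ± 0.22. These amount to 1.53-fold and 2.73-fold less Sod2 for each Sod1 or Cat count, and neither overlapped between groups (exact 2-sided permutation p = 0.1 for each, the smallest possible, 0.1 adjusted over 3 ratios). Without shNC replicate 2 the differences of -0.61 and -1.45 were -0.76 and -1.17.

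**Figure D4:**
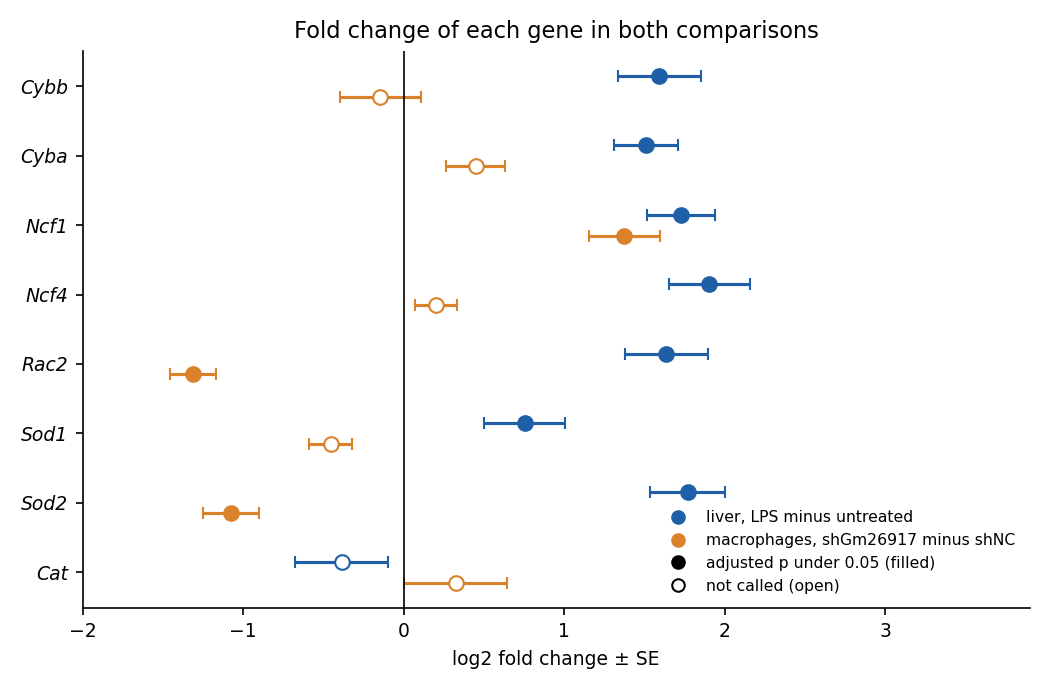
Log2 fold change with its SE (horizontal axis) of each gene in liver, LPS minus untreated (blue), and in LPS-treated macrophages, shGm26917 minus shNC (orange); filled points passed an adjusted p of 0.05. The 7 filled liver points lie between 0.75 and 1.90, and the filled macrophage points are Ncf1 at 1.37, Rac2 at -1.31 and Sod2 at -1.07.

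Per kilobase of exon, the shNC macrophages held Cybb at 858 ± 223, Cyba at 492 ± 90.2, Sod2 at 269 ± 30.2, Rac2 at 261 ± 29.7, Cat at 153 ± 56.0, Ncf4 at 118 ± 13.4, Ncf1 at 52.1 ± 14.2 and Sod1 at 28.5 ± 2.35 CPM per kilobase. Sod2 and Rac2 overlapped in their libraries, as did Cat and Ncf4, while Cybb lay above Cyba and Ncf1 below Ncf4 in every library. With shGm26917, Cybb at 776 ± 48.4 and Cyba at 672 ± 65.7 overlapped. Ncf1 at 135 ± 4.13, Ncf4 at 135 ± 3.76 and Sod2 at 128 ± 9.75 CPM per kilobase also overlapped there. Length is again the union of all annotated exons, 3970 bases for Sod1 and 10008 for Sod2, so the order of genes is rough.

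In the wider oxidase list, 18 of 27 genes were tested in macrophages, with 2 higher and 1 lower, against 12.6% and 11.1% of all genes tested. Outside the 5 members 1 of 13 was called, Prkcb, a kinase that phosphorylates p47phox (log2 fold change 0.69, edgeR adjusted p = 0.0337). The list counted 4 higher and 6 lower without shNC replicate 2, 7 higher and 1 lower with library totals alone, and 1 higher and 1 lower when any other single library was left out. Cybc1 was at 103, 126 and 91.4 CPM with shNC and at 96.0, 102 and 94.3 CPM with shGm26917 (log2 fold change -0.13, edgeR adjusted p = 0.534). Nox4 had no count in any of the 6 libraries.

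Of 27 tested genes of superoxide and peroxide removal, 7 were higher and 5 lower with shGm26917, against 12.6% and 11.1% of all genes tested. The count was 9 and 8 without shNC replicate 2, 10 and 2 with library totals alone, and 3 to 6 higher with 0 to 2 lower when any other single library was left out. Gpx1, the abundant cytosolic glutathione peroxidase, was at 93.7, 100.1 and 55.7 CPM with shNC and at 388, 404 and 466 CPM with shGm26917 (log2 fold change 2.33, edgeR adjusted p = 0.00347). Sesn1 (1.87, edgeR adjusted p = 0.00492), Gpx4 (1.06, adjusted p = 0.00753), Txnrd2 (0.83, adjusted p = 0.0150) and Ccs (0.62, adjusted p = 0.0372) also rose. The genes that fell besides Sod2 included Glrx (-2.49, edgeR adjusted p = 0.0342), Prdx5 (-0.95, adjusted p = 0.0222), Sesn2 (-0.65, adjusted p = 0.048) and, at the edge of the threshold, Sod3 (adjusted p = 0.04996). Sod3 had few reads, at 3.42, 0.946 and 4.12 CPM against 0.764, 0.876 and 0.454 CPM. Glrx was at 745 CPM in shNC replicate 2 against 173 and 175 CPM, and without that library its log2 fold change was -1.44 (adjusted p = 0.00246).

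Of 15 tested genes of NADPH supply, 7 were higher and 1 lower, against 12.6% and 11.1% of all genes tested. Their median log2 fold change was 0.55, against -0.00 over all genes tested. The isocitrate dehydrogenases Idh1 (log2 fold change 1.68, edgeR adjusted p = 0.00233) and Idh2 (1.64, adjusted p = 0.0119) had the largest rises. Mthfd1 (1.39) and Pgls (0.89, edgeR adjusted p = 0.00644) came next. G6pdx also rose (0.49, edgeR adjusted p = 0.0356), and Mthfd2 fell (-1.49, adjusted p = 0.0443). This list counted 7 higher and 0 lower with library totals alone, 8 and 1 without shNC replicate 2, and 2 to 5 higher and 0 lower when any other single library was left out.

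Of 8 tested oxidant-forming enzymes, 2 were higher, among them Maoa (log2 fold change 1.83, edgeR adjusted p = 0.00526), and 2 were lower. Over all genes tested, 12.6% were called higher and 11.1% lower. The list counted 3 higher and 2 lower without shNC replicate 2 and also with library totals alone. Nos2 was at 30.2, 531 and 68.5 CPM with shNC and at 0.916, 0.383 and 0.454 CPM with shGm26917 (log2 fold change -8.45, edgeR adjusted p = 0.00979). The spread among shNC libraries was wide, and without shNC replicate 2 the log2 fold change was -6.38 (adjusted p = 0.00011). Ero1l, which forms hydrogen peroxide during disulfide bond formation, fell (-1.08, edgeR adjusted p = 0.0078). Xdh did not pass the test (0.61, edgeR adjusted p = 0.637), and without shNC replicate 2, which held 403 CPM against 51.9 and 40.1 CPM, it was higher (2.43, adjusted p = 0.000311). Of the 19 called genes named from the lists in macrophages, 7 kept the call in all 6 fits that left out 1 library: Gpx1, Gpx4, Sesn1, Idh1, Pgls, Maoa and Ero1l. Nos2, Idh2 and Mthfd1 lost it without shGm26917 replicate 2 or 3 (highest adjusted p 0.0546), Txnrd2 and Glrx in 3 of the fits, and Prkcb, Ccs, Prdx5, Sesn2, Sod3, G6pdx and Mthfd2 in every fit but the one without shNC replicate 2, with adjusted p values of up to 0.157 (Sod3).

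**Figure D5:**
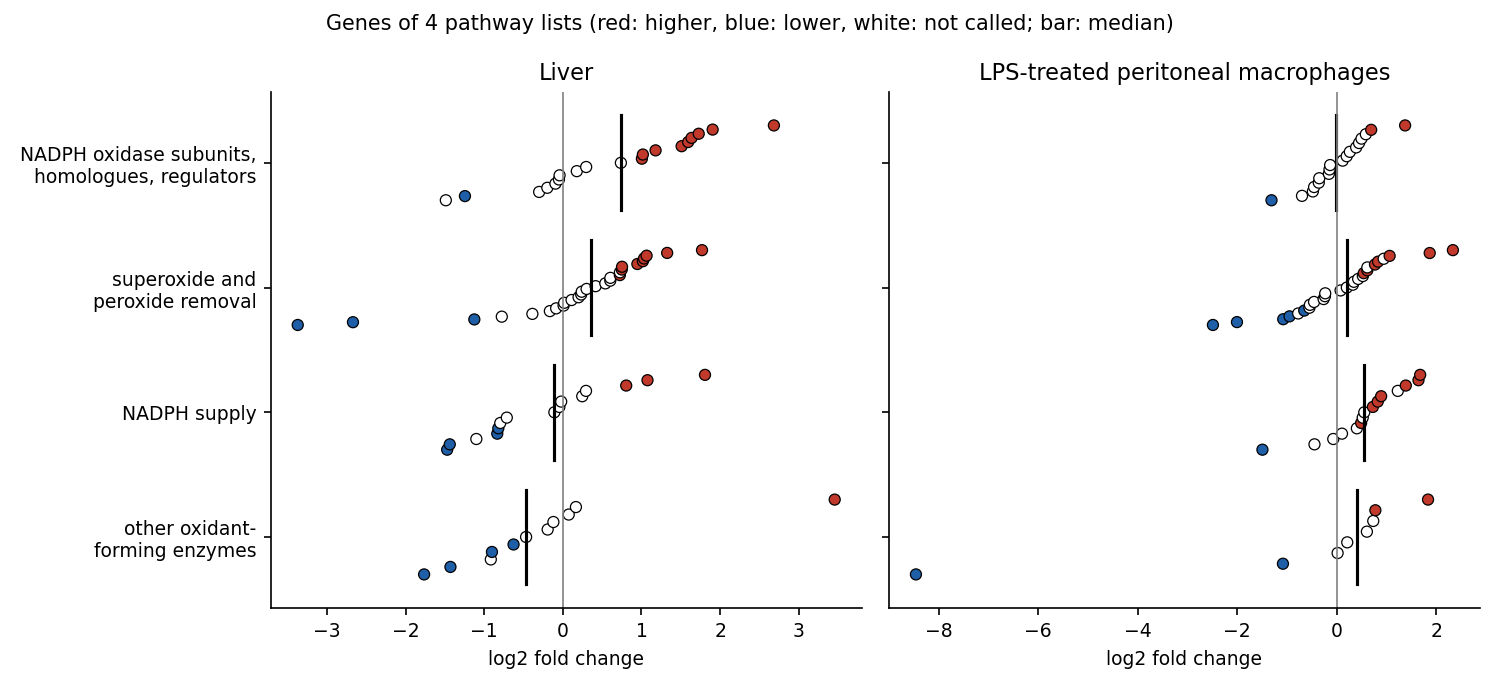
Log2 fold change (horizontal axis) of each tested gene in 4 pathway lists, in liver (left, LPS minus untreated; Nos2, at 0 in untreated liver, is not drawn) and in macrophages (right, shGm26917 minus shNC), coloured by call, with vertical bars at the list medians. In liver 9 of 19 oxidase-list and 9 of 28 removal-list genes are called higher, and 1 and 3 lower. Outside the 5 members, 4 of 14 oxidase-list genes are higher. In macrophages 7 of 15 NADPH supply genes are called higher and 1 lower. Over all genes tested, 23.3% are higher and 22.1% lower in liver, and 12.6% and 11.1% in macrophages.

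The tables of the 2 tissues came from different annotations, so levels across all 4 groups are a description on the shared gene IDs in 1 common scaling, with no test. Cybb was at 18.6 ± 4.04 CPM in untreated liver, 53.4 ± 16.3 in LPS liver, 3255 ± 187 in shGm26917 macrophages and 3623.5 ± 987 in shNC macrophages, with the last 2 groups overlapping. Sod2 was at 220 ± 53.0, 709 ± 28.3, 923 ± 73.7 and 1952 ± 244 CPM in the same order of groups, and no neighbours overlapped. Sod1 ran the other way, at 59.6 ± 7.92 CPM in shGm26917 macrophages, 82.0 ± 5.51 in shNC macrophages, 1039 ± 253 in untreated liver and 1655 ± 88.8 in LPS liver. Cat was likewise lower in macrophages, with 290 ± 110 CPM in shNC and 361 ± 84.1 in shGm26917 against 1853.5 ± 415 in LPS liver and 2560 ± 611 in untreated liver, where each tissue's groups overlapped.

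The genes whose pattern over the 6 libraries of a tissue was closest to Cybb and Sod2 were ranked by the root mean square difference of log2 CPM after centring each gene. In liver, Fcgr1, the high-affinity IgG receptor, was closest to Cybb (0.139), followed by Zfp160 (0.147) and Lrig2 (0.149). Ttc9c (0.0881), Hcls1 (0.0961) and Usf1 (0.103) were closest to Sod2 there. In macrophages the closest genes to Cybb were Zfyve21 (0.0621), Sdad1 (0.0624) and Nudc-ps1 (0.0629), and those to Sod2 were Psmd11 (0.0608), Surf4 (0.0717) and Alg2 (0.0857). With 6 libraries in 2 groups, this measure largely picks genes with a similar group difference. The log2 fold changes of the genes closest to Sod2 were 1.72, 1.69 and 1.91 in liver and -1.02, -1.13 and -1.07 in macrophages. The macrophage ranking includes shNC replicate 2, and shared regulation was not tested.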

How the data were processed

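The deposited values were raw counts of reads per gene, with Ensembl IDs, in a separate table for each library, per the file headers. STAR, featureCounts 1.6.3 and mm10 are named in the submitters' processing notes; the annotation release, strand setting and handling of multi-mapping reads were not given there. The macrophage columns are headed as combined, without saying what was combined. Symbols matched 49326 of 49585 liver and 55141 of 55401 macrophage IDs. Positions and exon lengths are from GENCODE M21 (GRCm38), promoters from RefSeq GRCm38.p6 (6 of the 8 genes had an entry).

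Each tissue was fitted alone with edgeR 4.0.16 under R 4.3.3: filterByExpr, TMM, quasi-likelihood F test, 2-sided, Benjamini-Hochberg adjustment over all genes tested. Calls are at an adjusted p under 0.05. Ratios used counts plus 0.5 and an exact 2-sided permutation test. All 8 genes passed the filter in both tissues. Alternatives were library totals alone, DESeq2's size factors, DESeq2 1.42.0, other filters, a replicate block, 1 fit over 12 libraries, a pseudocount of 2 and leaving out each library. On simulated data, the liver fit (13869 genes) recovered 8.16% of genes at a log2 fold of 1 and 69.7% at 2, and the macrophage fit (12876 genes) 14.4% and 79.4%. Only 100 genes were altered at each of these folds, whereas 45.3% and 23.7% of genes were called in the real fits. A smaller altered share makes the adjusted threshold stricter, so these rates do not measure what the real fits miss.

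The members and lists were chosen with earlier results of these data known. Named list genes were Rac1, Cybc1, Nox4, Sod3, Ccs, G6pdx and Nos2 whatever their outcome, plus up to 4 called genes in each direction, list and tissue with the largest fold change; Prdx5, Txnrd1, single cell type markers and Xdh in macrophages were named beyond that rule, after their values were seen. Some genes that the rule names are not reported here. Of the 12 pairs of libraries within a group, none agreed within sampling noise.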

Additional observations from a re-analysis of the deposited data

How the results depend on the processing

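Of 104 values of single genes under alternative settings in liver, 95 kept their direction and side of the threshold. The exceptions were 8 for Sod1, which lost its call, and 1 for Cat, which gained one with library totals alone, so that 1 of the 8 genes was lower there. In macrophages 97 of 104 did. With library totals alone the Cybb change reversed to 0.15, and 3 of the 8 genes were higher (Ncf1, Cyba and Ncf4). Leaving out 1 library at a time, the number of genes lower in macrophages ranged from 1 to 3, and the called genes of the 4 pathway lists, 27 with all libraries, from 11 to 41. The log2 ratio of Cybb to Cyba in liver then ranged from -0.18 to 0.37, and that of Ncf4 to the pan-leukocyte sum in macrophages, chosen after seeing the data, from -0.040 to 0.062. The Sod1 change in macrophages passed the test with DESeq2 (-0.47, adjusted p = 0.0308) and with DESeq2's size factors in edgeR (-0.48, adjusted p = 0.0472). Apart from leaving out samples, which lowers their number, the cause was not tested. Calls over all macrophage genes ranged from 479 higher and 360 lower without shGm26917 replicate 2 to 2715 and 2521 without shNC replicate 2.

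In liver, deviations from the group mean correlated at r from -0.0766 to 0.118 between same-numbered libraries and from -0.186 to 0.123 between the others. In macrophages the ranges were -0.0407 to 0.24 and -0.236 to 0.157, with the highest values for same-numbered replicates 2 and 3. With 3 libraries in each group, these values cannot tell whether the numbers pair samples. With the replicate block, 5754 genes were called in liver and 2594 in macrophages, and liver Sod1 had an adjusted p of 0.0597. Genes at a few CPM, such as Ncf4 in liver and Sod3 in macrophages, rest on few reads.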
